A study of Mus musculus with 6 samples.

Results

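The mitochondrial ribosomal protein genes were taken as every gene symbol made of Mrpl or Mrps and a number, whose level averaged 1 FPKM or more across the 6 libraries. The deposited table held 77 such symbols among 18518 in all, and each of the 77 passed the level filter (the lowest mean was 6.53 FPKM), so they stand among the 12187 genes tested. FPKM corrects the fragment count of a gene for transcript length and for library size, so levels can be compared between genes. The rule used the symbol and the mean level only, and it was set with earlier results of these data known. The libraries came from E14Tg2A cells, an established mouse embryonic stem cell line, and fall into 3 BACH1-KO and 3 WT libraries.

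In the BACH1-KO cells the gene Bach1, which encodes a heme-binding transcriptional repressor, had been targeted with CRISPR/Cas9 guides carried on the LentiCRISPR V2 plasmid, with transient transfection, puromycin selection and sorting of single-cell clones. The WT cells carried no such edit. Both genotypes spent 2 days in serum medium with 200 units/ml of mouse LIF, the cytokine that keeps these cells self-renewing. The labels do not say whether the BACH1-KO libraries come from 1 clone or whether libraries are separate cultures, so the spread behind the p-values is that of the libraries and may be technical. The study's stated question is the role of BACH1 in the pluripotency of these cells, and its labels do not single out the mitochondrial ribosome.

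Mitochondria hold ribosomes of their own, built from ribosomal RNAs that are transcribed from mitochondrial DNA and from proteins that are encoded in the nucleus, made in the cytosol and imported. These ribosomes translate the mitochondrially encoded subunits of the respiratory chain and of ATP synthase. Many of their proteins descend from bacterial ribosomal proteins, and others are found in mitochondria alone. Embryonic stem cells are known for a strong use of glycolysis and for mitochondria of immature form.

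The Bach1 transcript itself stood at 10.5, 10.4 and 10.4 FPKM in BACH1-KO libraries, against 7.97, 8.39 and 8.47 FPKM in WT libraries, which is higher in the knockout (log2 fold change 0.30, limma adjusted p = 0.000515). A gene-level FPKM does not show the edited bases, so this level does not check the labels, and BACH1-KO below means the libraries so labelled. Between 17276 and 17455 symbols had a value above 0 in BACH1-KO libraries, against 16047 to 16159 in WT libraries. All 10 embryonic stem cell markers listed were expressed in both groups, 8 of them lower and 2 higher in BACH1-KO at an adjusted p under 0.05 (limma). Of all genes tested 39.7% were lower and 37.3% higher. Together the 10 markers held 0.885% to 0.921% of the summed FPKM in BACH1-KO libraries and 1.31% to 1.41% in WT libraries. Hepatocyte markers, which should be absent from these cells, held 0.184% to 0.192% in BACH1-KO libraries and 0.00163% to 0.00337% in WT libraries. Of the 46 listed, 45 had a value, 42 were tested and all 42 were higher. Of these, 40 averaged under 1 FPKM in WT libraries and passed the level filter through the BACH1-KO libraries, so their direction was fixed by the filter. The list includes Alb, which encodes albumin, with 461, 471 and 471 FPKM in BACH1-KO libraries and 0.0738, 0.701 and 1.39 FPKM in WT libraries. The 12 fibroblast feeder markers, of which 5 were tested with 4 lower and 1 higher, held 0.00929% to 0.00964% in BACH1-KO libraries and 0.0260% to 0.0279% in WT libraries. Most of that sum was Vim, at 54.9 ± 1.35 FPKM in BACH1-KO libraries and 186 ± 9.31 FPKM in WT libraries (SD, n = 3 each). Of the 7 feeder markers too low to test, 5 (Col1a2, Col3a1, Lum, Dcn and Postn) were above WT in every BACH1-KO library and 2 (Col1a1 and Pdgfra) below. Dcn averaged 0.764 FPKM in BACH1-KO libraries and 0.0664 FPKM in WT libraries, and Col3a1 was at most 0.132 FPKM in BACH1-KO libraries and listed at 0 in WT libraries. The part of these markers in the results below was not tested.

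The mitochondrial ribosomal protein transcripts were on balance lower in BACH1-KO cells. Of the 77 members, 43 fell and 17 rose at an adjusted p under 0.05 (limma over all genes, Benjamini-Hochberg), while the other 17 did not pass. These are 55.8% and 22.1% of the members, while 39.7% of all genes tested fell and 37.3% rose. The members' median log2 fold change was -0.24, beside -0.01 over all genes tested. Fewer cells with these transcripts and less of them per cell cannot be told apart in such bulk libraries.

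Beside genes of like abundance the members' excess of falls was smaller, while their deficit of rises was about as large. The 58 members that averaged 50 FPKM or more had 36 falls and 8 rises, or 62.1% and 13.8%, and a median log2 fold change of -0.26. Of all 2089 genes in that range 55.0% fell and 28.6% rose, with a median of -0.17. The 19 members below 50 FPKM had 7 falls and 9 rises and a median of 0.10. Across the members the log2 fold change went down with level (Spearman's rho -0.30 over 77 genes, which are not independent), and across all genes tested rho was -0.20. After quantile normalization, which gives each library the same distribution of values, 36 members fell and 26 rose, so that 41.9% of the called members were rises in place of 28.3%. The falls were 46.8% and the rises 33.8% of the members, while 41.0% of all genes tested fell and 34.9% rose in that fit. The members' share of rises was then near that of all genes, and their median moved to -0.11, beside -0.04 over all genes. The falls of Mrpl13, Mrpl15, Mrpl33, Mrpl40, Mrps14, Mrps33 and Mrps36 did not pass there.

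**Figure D1:**
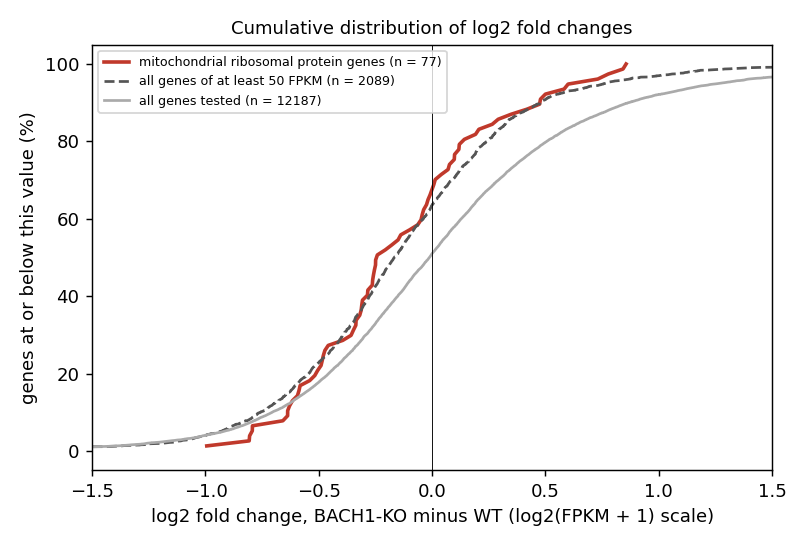
Cumulative share of genes (vertical axis, percent) at or below each log2 fold change, BACH1-KO minus WT (horizontal axis, log2(FPKM + 1) scale), for the 77 mitochondrial ribosomal protein genes, the 2089 genes of at least 50 FPKM and all 12187 genes tested; values beyond 1.5 in either direction are off the axis. The members' curve lies left of that of all genes around its median of -0.24 and close to that of the abundant genes, whose median is -0.17.

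Counted by library, all 3 BACH1-KO values lay below all 3 WT values for 42 members (background 40.9% of all genes tested) and above them for 17 members (background 38.4%). The remaining 18 members overlapped between the groups. Among the 58 members of 50 FPKM or more, 35 lay below (background 55.5% of genes in that range) and 8 above (background 29.5%). Summed over the 77 members, the level was 6383, 6280 and 6241 FPKM in BACH1-KO libraries, against 7243, 7316 and 7306 FPKM in WT libraries. The groups did not overlap, and the mean of 6301 ± 72.9 FPKM in BACH1-KO was 0.865 times the mean of 7288 ± 39.7 FPKM in WT (SD, n = 3 each). The log2 ratio of summed member FPKM was -0.21, and -0.0709 after quantile normalization. As a share of all FPKM the sum was 0.818% to 0.833% in BACH1-KO libraries and 0.909% to 0.922% in WT libraries. A median over the 77 members was also taken within each library, where it fell on different genes. It was 68.0, 68.4 and 68.5 FPKM in BACH1-KO libraries and 78.6, 79.6 and 79.0 FPKM in WT libraries.

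The members differed widely in level among themselves and little between libraries of a group. Mean levels over the 6 libraries ran between 6.53 FPKM for Mrpl19 and 336.8 FPKM for Mrpl42, with a median of 74.2 FPKM, beside 11.6 FPKM over all genes tested. Of the members, 24 were above 100 FPKM, 47 between 20 and 100 FPKM and 6 below 20 FPKM. The median coefficient of variation between libraries was 3.44% in BACH1-KO and 4.16% in WT. The levels of the members were closely correlated between genotypes (Pearson's r 0.935 between the log2 group means, over 77 genes that share their libraries). The spread of those log2 levels over the members was 1.02 in BACH1-KO and 1.19 in WT (SD). The 4 members with the lowest levels, Mrpl19, Mrpl41, Mrpl17 and Mrpl35, all rose.

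Members of both subunits fell and rose. The large subunit, which joins amino acids to the growing chain, had 50 members, of which 29 fell, 11 rose and 10 did not pass, with a median log2 fold change of -0.26. The small subunit, which holds the messenger RNA and reads its codons, had 26 members, of which 13 fell, 6 rose and 7 did not pass, with a median of -0.10. The falls were 58% of the large and 50% of the small subunit, beside 39.7% of all genes tested. The rises were 22% and 23.1%, beside 37.3%. Of all genes that averaged 50 FPKM or more, 55.0% fell and 28.6% rose. Mrps36 belongs to neither, since it is known as a component of the oxoglutarate dehydrogenase complex in spite of its name. The summed level of the large subunit was 0.843 times the WT level and that of the small subunit 0.913 times. Within each library, the large subunit's sum divided by the small subunit's was 2.14, 2.06 and 2.08 in BACH1-KO and 2.24, 2.30 and 2.26 in WT, so the groups did not overlap. Whether the subunits differ in response was not tested.

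The members were also counted by ancestry. Of the 30 large-subunit proteins with a bacterial counterpart 17 fell (56.7%) and 7 rose (23.3%). Of the 19 found only in mitochondria 11 fell (57.9%) and 4 rose (21.1%). In the small subunit 7 of 15 proteins with a bacterial counterpart fell (46.7%) and 2 rose (13.3%). Of its 9 mitochondria-specific ones 5 fell (55.6%) and 3 rose (33.3%). Of all genes tested 39.7% fell and 37.3% rose, and of those that averaged 50 FPKM or more 55.0% and 28.6%. The S18 paralogs were counted apart.

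**Figure D2:**
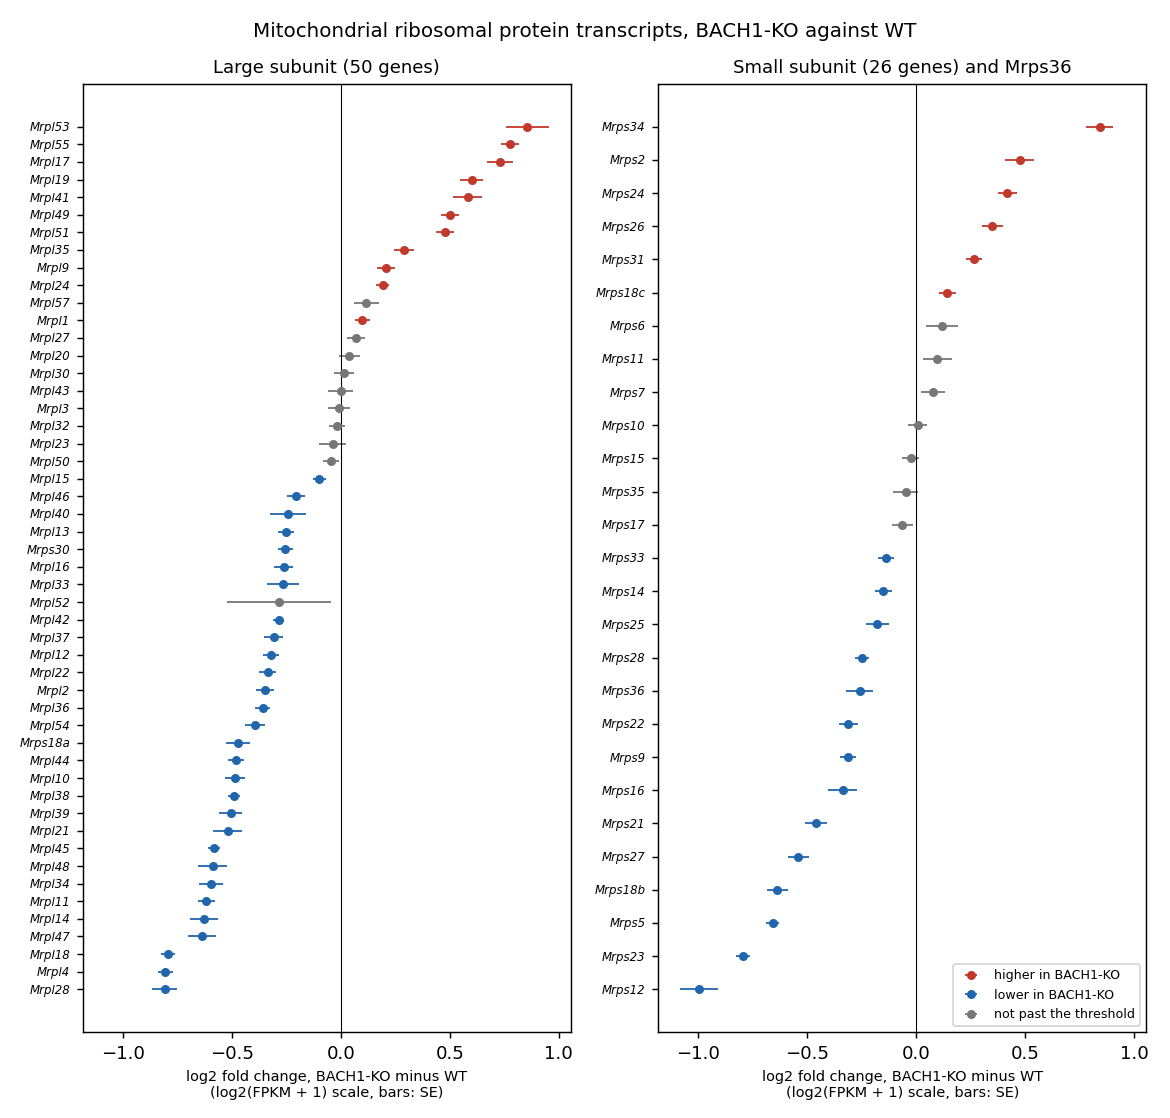
Log2 fold change of each mitochondrial ribosomal protein gene, BACH1-KO minus WT (horizontal axis, log2(FPKM + 1) scale; points with bars of 1 SE), in the large subunit (left) and in the small subunit with Mrps36 (right), coloured by call. Values run between -0.99 (Mrps12) and 0.86 (Mrpl53), with 43 genes lower, 17 higher and 17 not past the threshold.

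The largest fall was that of Mrps12, whose product lies in the decoding centre of the small subunit. Mrps12, at chromosome 7, 28739641 to 28741820 on the minus strand (GRCm38), had 36.9, 33.4 and 39.5 FPKM in BACH1-KO libraries, against 76.98, 64.9 and 80.3 FPKM in WT libraries. Every BACH1-KO value was below every WT value, and the BACH1-KO mean was 0.494 times the WT mean (log2 fold change -0.99, SE 0.087, adjusted p = 1.53e-05). In the large subunit, Mrpl28 at chromosome 17, 26123500 to 26126613 on the plus strand, had 109, 96.4 and 96.5 FPKM in BACH1-KO libraries, against 168, 185 and 178 FPKM in WT libraries. The groups were far apart, with the first BACH1-KO library the highest of its 3 (log2 fold change -0.81, SE 0.057, adjusted p = 4.38e-06). The 150 bases upstream of the RefSeq start of these genes, which fell most in each subunit, are shown 5' to 3' on the gene's strand (GRCm38.p6), with matches to the promoter motifs described further on in capitals, of which neither has any.
Mrps12, chr7:28741822-28741971, minus strand: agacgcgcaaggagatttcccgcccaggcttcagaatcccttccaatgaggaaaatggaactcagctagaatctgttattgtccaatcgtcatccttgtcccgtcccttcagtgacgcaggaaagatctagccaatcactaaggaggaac
Mrpl28, chr17:26123353-26123502, plus strand: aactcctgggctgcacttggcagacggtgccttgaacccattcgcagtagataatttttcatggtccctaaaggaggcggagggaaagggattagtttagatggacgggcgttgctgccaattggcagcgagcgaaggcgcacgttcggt

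Another 3 genes fell nearly as far. Mrpl4, a protein near the exit tunnel, had 64.8, 66.0 and 63.3 FPKM in BACH1-KO libraries, against 115, 109.8 and 117 FPKM in WT libraries (log2 fold change -0.81, SE 0.035, adjusted p = 3.53e-07). Mrps23, a mitochondria-specific small-subunit protein, had 47.4, 49.4 and 48.4 FPKM in BACH1-KO libraries, against 83.1, 83.9 and 86.9 FPKM in WT libraries (log2 fold change -0.79, SE 0.033, adjusted p = 2.98e-07). Mrpl18, whose bacterial counterpart binds the 5S ribosomal RNA and which is among the 4 most abundant members, had 147, 140.4 and 143 FPKM in BACH1-KO libraries, against 243, 249 and 257 FPKM in WT libraries (log2 fold change -0.79, SE 0.033, adjusted p = 2.99e-07). In all 3 genes the groups were separated by a gap wider than the range within either group. Together with Mrps12 and Mrpl28 these were the only members whose fall also passed a test against a fold change of 1.5.

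Mrps5 had 83.2, 80.8 and 81.3 FPKM in BACH1-KO libraries, against 132, 126 and 130.4 FPKM in WT libraries (log2 fold change -0.66, adjusted p = 5.24e-07). Its bacterial counterpart guards the accuracy of decoding and the unwinding of messenger RNA at the entry site. Mrpl47, the counterpart of bacterial L29 at the exit tunnel, had 49.5, 46.7 and 44.1 FPKM in BACH1-KO libraries, against 78.6, 74.5 and 67.2 FPKM in WT libraries (log2 fold change -0.64, adjusted p = 3.48e-05). Neither gene's groups overlapped. Over all members, 12 falls and 5 rises reached a fold of 1.5 in the estimate. In the test against that fold 6.49% of the members fell and 2.60% rose, beside 8.16% and 10.9% of all genes tested.

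Several proteins known for a role beyond the ribosome's core fell as well. Mrpl12, which forms the stalk that recruits translation factors and has been reported to bind the mitochondrial RNA polymerase, had 154, 155 and 153 FPKM in BACH1-KO libraries, against 196, 183 and 198 FPKM in WT libraries (log2 fold change -0.32, adjusted p = 6.45e-05). Mrpl45, which anchors the ribosome to the inner membrane, had 81.2, 83.0 and 82.1 FPKM in BACH1-KO libraries, against 121, 124 and 125 FPKM in WT libraries (log2 fold change -0.58, adjusted p = 6.23e-07). Mrpl44, which has a fold like that of ribonuclease III, had 42.6, 43.3 and 42.7 FPKM in BACH1-KO libraries, against 59.2, 62.8 and 58.6 FPKM in WT libraries (log2 fold change -0.48, adjusted p = 6.73e-06). All 9 BACH1-KO values of these 3 genes were below the WT values of the same gene. Mrps30, which sits in the large subunit in spite of its name, had 68.0, 66.5 and 70.0 FPKM in BACH1-KO libraries, against 82.4, 83.2 and 79.0 FPKM in WT libraries (log2 fold change -0.25, adjusted p = 0.000233). Mrps36 had 68.9, 68.4 and 58.9 FPKM in BACH1-KO libraries, against 75.2, 79.6 and 80.2 FPKM in WT libraries (log2 fold change -0.26, adjusted p = 0.00511), and lost its call under quantile normalization (-0.15, adjusted p = 0.0610). The genome holds annotated processed pseudogenes of Mrps36, Mrpl48 and Mrpl23, so the levels of these 3 genes are uncertain where the authors' counting could split reads between copies.

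Mammals have paralogs of the bacterial protein S18, and they did not move together. Mrps18b, in the small subunit, had 69.9, 76.3 and 76.6 FPKM in BACH1-KO libraries, against 119.6, 110.0 and 119 FPKM in WT libraries (log2 fold change -0.64, adjusted p = 6.64e-06). Mrps18a, whose product lies in the large subunit, had 44.4, 50.4 and 47.8 FPKM in BACH1-KO libraries, against 68.9, 62.7 and 67.5 FPKM in WT libraries (log2 fold change -0.47, adjusted p = 8.03e-05). Mrps18c, the most abundant of them and a small-subunit protein, had 166, 166 and 169 FPKM in BACH1-KO libraries, against 143, 153 and 158 FPKM in WT libraries (log2 fold change 0.14, adjusted p = 0.0110). The first pair fell and Mrps18c rose, in each case without overlap between the groups, although the distance between the nearest values of Mrps18c was small.

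The rises were led by Mrpl53, a mitochondria-specific large-subunit protein on chromosome 6 (83109040 to 83109939, plus strand). Mrpl53 had 68.6, 68.4 and 56.7 FPKM in BACH1-KO libraries, against 31.3, 39.5 and 34.9 FPKM in WT libraries. The third BACH1-KO library was the lowest of its group and still above every WT library (log2 fold change 0.86, SE 0.097, adjusted p = 7.30e-05). Mrps34, a mitochondria-specific small-subunit protein needed for the stability of the small subunit, had 76.5, 81.4 and 79.1 FPKM in BACH1-KO libraries, against 39.5, 44.9 and 46.8 FPKM in WT libraries (log2 fold change 0.84, SE 0.062, adjusted p = 5.43e-06). Mrpl55, a large-subunit protein, had 39.7, 38.7 and 38.1 FPKM in BACH1-KO libraries, against 23.2, 21.3 and 22.3 FPKM in WT libraries (log2 fold change 0.78, SE 0.042, adjusted p = 9.79e-07). Of the 17 rises, those of Mrps34 and Mrpl55 also passed a test against a fold change of 1.5. Mrpl17, whose bacterial counterpart lies near the exit tunnel, had 14.7, 14.6 and 14.4 FPKM in BACH1-KO libraries, against 7.99, 7.99 and 9.21 FPKM in WT libraries (log2 fold change 0.73, SE 0.061, adjusted p = 1.14e-05). The groups of these 4 genes did not overlap. For comparison with the falling genes, the sequences upstream of the RefSeq start of Mrpl55 and Mrpl17 follow, in the same form. The capitals in that of Mrpl17 mark a match to the NRF1 motif. In the GENCODE M21 annotation Mrpl17 starts at 105811099, so this match lies inside the gene as annotated there.
Mrpl55, chr11:59202336-59202485, plus strand: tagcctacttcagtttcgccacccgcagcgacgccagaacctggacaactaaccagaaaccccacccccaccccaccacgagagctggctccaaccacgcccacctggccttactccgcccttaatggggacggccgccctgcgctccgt
Mrpl17, chr7:105811088-105811237, minus strand: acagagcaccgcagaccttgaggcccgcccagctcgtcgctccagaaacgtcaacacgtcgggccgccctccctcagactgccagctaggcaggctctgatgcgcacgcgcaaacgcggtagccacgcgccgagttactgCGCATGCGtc

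Mrpl19, the least abundant member, had 8.03, 7.87 and 8.31 FPKM in BACH1-KO libraries, against 5.06, 5.01 and 4.88 FPKM in WT libraries (log2 fold change 0.60, adjusted p = 1.50e-05). Mrpl41, also low, had 10.6, 10.3 and 11.2 FPKM in BACH1-KO libraries, against 6.91, 6.24 and 7.35 FPKM in WT libraries (log2 fold change 0.58, adjusted p = 7.65e-05). Both are large-subunit proteins, and both rose without overlap. Mrpl49 had 81.0, 84.0 and 80.1 FPKM in BACH1-KO libraries, against 55.1, 56.9 and 60.5 FPKM in WT libraries (log2 fold change 0.50, adjusted p = 1.20e-05). Mrpl51 had 84.6, 86.2 and 88.8 FPKM in BACH1-KO libraries, against 58.4, 62.6 and 64.6 FPKM in WT libraries (log2 fold change 0.48, adjusted p = 1.81e-05). These mitochondria-specific proteins of the large subunit were likewise higher in each BACH1-KO library than in any WT library.

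**Figure D3:**
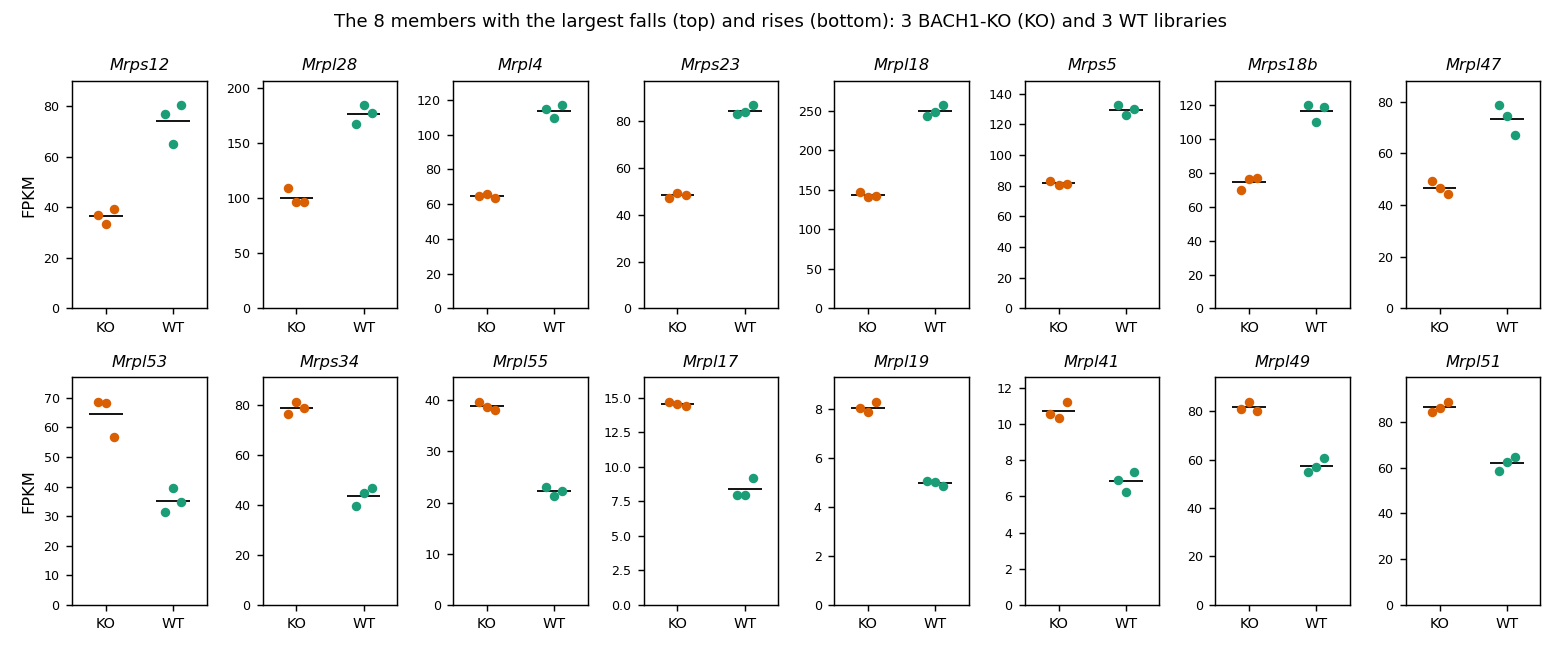
FPKM in each of the 3 BACH1-KO (KO, left in each panel) and 3 WT libraries (points) with the group mean (line) for the 8 members with the largest falls (top) and the 8 with the largest rises (bottom); each vertical axis starts at 0 and has its own scale. In no panel do the groups overlap, and among these genes the ratio of means is lowest for Mrps12 (0.494) and highest for Mrpl53 (1.83).

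Some of these levels can include reads of neighbouring genes, because the sources used here do not state whether counting used strand. In the GENCODE M21 annotation 23 members share exon bases with another protein-coding gene, and for 6 the share is over 20% of the member's exon bases. Mrpl53 shares 88.0% with Gm42688 on the same strand. Mrps34 shares 63.4% with Mapk8ip3 on the opposite strand and 37.0% with Nme3 on its own. For Mrps25 the share is 69.8% (with Nr2c2), for Mrpl19 36.0% (Gcfc2), for Mrpl43 33.4% (Twnk) and for Mrpl24 26.3% (Rrnad1), each on the opposite strand. The shares are of annotated bases and not of reads. Over all libraries Rrnad1 had 4.84 to 5.60 FPKM, Nr2c2 2.10 to 2.56 FPKM and Gcfc2 4.26 to 5.18 FPKM. Mapk8ip3 had 8.30 to 9.43 FPKM in BACH1-KO libraries and 9.63 to 10.3 FPKM in WT libraries. Nme3 had 29.8 to 33.8 FPKM in BACH1-KO libraries and 25.2 to 31.3 FPKM in WT libraries, and Gm42688 had no value. The changes of Mrpl53, Mrps34, Mrps25, Mrpl19 and Mrpl24 are uncertain where such reads were counted, which was not tested.

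On chromosome 6 rises outnumbered falls, among the members and among all genes there. Its 7 members held 4 rises (Mrpl53, Mrpl19, Mrpl51 and Mrpl35) and 2 falls (Mrps25 and Mrps33), with a median log2 fold change of 0.29, and Mrps35 did not pass. Of all 541 genes tested on chromosome 6, 59.3% rose and 17.6% fell, with a median of 0.31. By library, 4 of the 7 lay above WT (background 62.1% on that chromosome) and 2 below (background 18.7%). Mrpl35 had 12.8, 13.2 and 13.1 FPKM in BACH1-KO libraries, against 10.5, 10.2 and 10.8 FPKM in WT libraries (log2 fold change 0.29, adjusted p = 0.000493). Mrps25 had 12.6, 11.8 and 11.996 FPKM in BACH1-KO libraries, against 14.6, 13.8 and 13.1 FPKM in WT libraries (log2 fold change -0.18, adjusted p = 0.0152). Without the second BACH1-KO library the fall of Mrps25 did not pass (-0.16, adjusted p = 0.0562). Mrps33 had 41.8, 41.8 and 43.5 FPKM in BACH1-KO libraries, against 47.9, 46.9 and 45.3 FPKM in WT libraries (log2 fold change -0.14, adjusted p = 0.00824), and its call was lost under quantile normalization (-0.05, adjusted p = 0.245). Mrps35 had 81.6, 83.0 and 86.2 FPKM in BACH1-KO libraries, against 82.3, 82.5 and 95.2 FPKM in WT libraries, and its groups overlapped. On the other chromosomes 41 of 70 members fell (58.6%) and 13 rose (18.6%), with a median of -0.26. Of all genes placed on those chromosomes 41.1% fell and 36.0% rose. Chromosome 17 carried 8 members, of which 6 fell and 1, Mrps34, rose, while of its 607 genes tested 220 fell and 233 rose. Chromosome 11 carried 10 members, with 6 falls and 2 rises, beside 485 falls and 325 rises among its 1008 genes tested.

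The 4 most abundant members were all in the large subunit and did not share a direction. Mrpl42, a mitochondria-specific protein, had 306, 306 and 298 FPKM in BACH1-KO libraries, against 375, 368 and 367 FPKM in WT libraries (log2 fold change -0.29, adjusted p = 2.44e-05). Mrpl24, whose bacterial counterpart starts the assembly of the large subunit, had 229, 225 and 231 FPKM in BACH1-KO libraries, against 193, 203 and 204 FPKM in WT libraries (log2 fold change 0.19, adjusted p = 0.000649). Mrpl42 fell and Mrpl24 rose, without overlap between the groups. Mrpl52 had 248, 161 and 137 FPKM in BACH1-KO libraries, against 236, 265 and 159 FPKM in WT libraries. Its groups overlapped and its spread was the widest of all members, with a coefficient of variation of 31.9% in BACH1-KO and 24.8% in WT (log2 fold change -0.28, SE 0.24, adjusted p = 0.307). Without the first BACH1-KO library the estimate was -0.53 (adjusted p = 0.0499). Mrpl18 is described above.

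The 4 members with the largest adjusted p had estimates close to 0. Mrpl43 had 49.2, 51.1 and 47.9 FPKM in BACH1-KO libraries, against 47.7, 46.9 and 54.0 FPKM in WT libraries (adjusted p = 0.991). Mrpl3, which lies close to the peptidyl transferase centre, had 61.7, 56.3 and 61.4 FPKM in BACH1-KO libraries, against 63.7, 58.8 and 57.9 FPKM in WT libraries (adjusted p = 0.884). Mrps10 had 90.9, 98.1 and 93.5 FPKM in BACH1-KO libraries, against 90.2, 93.0 and 97.9 FPKM in WT libraries (adjusted p = 0.885). In each of these genes the groups overlapped. Mrpl30 had 185, 187 and 192 FPKM in BACH1-KO libraries, against 174, 188 and 198 FPKM in WT libraries (adjusted p = 0.803), again with overlap. The SE of their log2 fold changes lay between 0.043 (Mrps10) and 0.057 (Mrpl43), so small changes were not detectable. After quantile normalization Mrpl30 (0.19, adjusted p = 0.00376) and Mrps10 (0.15, adjusted p = 0.0141) passed as higher. The call itself rested on single libraries for a few members close to the threshold. Without the second BACH1-KO library Mrpl1 (0.11, adjusted p = 0.0504), Mrpl15 (-0.09, adjusted p = 0.0587) and Mrpl40 (-0.18, adjusted p = 0.0886) no longer passed, beside 0.10, -0.10 and -0.24 with all libraries. Without the third BACH1-KO library Mrpl1 (0.08, adjusted p = 0.109) and Mrpl40 (-0.23, adjusted p = 0.0734) did not pass. Without the first WT library Mrpl40 (-0.18, adjusted p = 0.0816) did not pass, without the second WT library Mrpl1 (0.09, adjusted p = 0.0804), Mrpl15 (-0.09, adjusted p = 0.0502) and Mrpl40 (-0.23, adjusted p = 0.0660) did not, and without the third Mrpl1 (0.10, adjusted p = 0.0652) did not.

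Mitoribosomal proteins whose symbols begin with neither Mrpl nor Mrps gave a mixed picture. Of 6 with a value, 3 fell, 1 rose and 2 did not pass, with a median log2 fold change of -0.05. The falls were 50% and the rises 16.7%, beside 39.7% and 37.3% of all genes tested. The list also held Mrp63, which is an older symbol of the member Mrpl57 and no further gene. Dap3, a GTP-binding protein of the small subunit that is also known from apoptosis, had 28.3, 29.5 and 29.2 FPKM in BACH1-KO libraries, against 37.8, 38.9 and 38.4 FPKM in WT libraries (log2 fold change -0.39, adjusted p = 1.71e-05). Ict1, a peptidyl-tRNA hydrolase built into the large subunit and now called Mrpl58, had 53.6, 50.03 and 52.2 FPKM in BACH1-KO libraries, against 69.3, 80.0 and 78.2 FPKM in WT libraries (log2 fold change -0.54, adjusted p = 4.73e-05). Both fell without overlap. Ptcd3, an RNA-binding small-subunit protein at the messenger RNA entry, had 42.4, 39.4 and 42.4 FPKM in BACH1-KO libraries, against 37.9, 34.8 and 32.99 FPKM in WT libraries (log2 fold change 0.23, adjusted p = 0.00572), a rise. Aurkaip1, of the small subunit, fell by 0.14 on the log2 scale (adjusted p = 0.0329), a call lost under median-of-ratios scaling (-0.11, adjusted p = 0.0743), with a constant prior variance (adjusted p = 0.0655), without the third BACH1-KO library (-0.09, adjusted p = 0.114), and without the second WT library (-0.14, adjusted p = 0.0595) or the third (-0.10, adjusted p = 0.104). After quantile normalization its direction turned (0.021, adjusted p = 0.701). Gadd45gip1 of the large subunit (0.04, adjusted p = 0.419) and Chchd1 of the small subunit (0.13, adjusted p = 0.0652) did not pass. Without the third WT library Chchd1 did (0.20, adjusted p = 0.00296), as it did after median-of-ratios scaling (0.16, adjusted p = 0.0351) and quantile normalization (0.31, adjusted p = 0.00129).

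Among the genes that build and run the mitochondrial ribosome, falls and rises were close in number. Over 3 lists with 62 genes, 25 fell and 23 rose, with a median log2 fold change of -0.04. These are 40.3% and 37.1%, near the 39.7% and 37.3% of all genes tested. Assembly and ribosomal RNA maturation had 15 rises and 9 falls among 28 genes and a median of 0.24. Translation factors had 4 rises and 8 falls among 16 genes and a median of -0.16, and transcription and replication of mitochondrial DNA had 4 rises and 8 falls among 18 genes and a median of -0.09. Whether these lists differ from the ribosomal proteins was not tested.

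Within assembly, Eral1, a GTPase that binds the small-subunit ribosomal RNA, had 18.1, 16.9 and 15.9 FPKM in BACH1-KO libraries, against 41.5, 39.5 and 40.1 FPKM in WT libraries (log2 fold change -1.21, adjusted p = 3.17e-07). Rbfa, a factor for maturation of the same subunit, had 36.8, 34.0 and 38.3 FPKM in BACH1-KO libraries, against 79.0, 76.7 and 73.2 FPKM in WT libraries (log2 fold change -1.05, adjusted p = 5.84e-07). Both fell further than any of the 77 members did. Trub2, a pseudouridine synthase, had 22.9, 23.4 and 24.5 FPKM in BACH1-KO libraries, against 10.5, 9.22 and 9.09 FPKM in WT libraries (log2 fold change 1.22, adjusted p = 6.57e-07), the largest rise in that list.

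Among translation factors, Tufm, the elongation factor that brings aminoacyl-tRNA to the ribosome, had 56.9, 62.2 and 59.1 FPKM in BACH1-KO libraries, against 200.0, 187 and 191 FPKM in WT libraries (log2 fold change -1.68, SE 0.042, adjusted p = 3.08e-08). Its BACH1-KO mean was 0.308 times the WT mean, a larger fall than that of any mitochondrial ribosomal protein gene. Guf1, a GTPase related to bacterial LepA, had 8.31, 8.31 and 8.81 FPKM in BACH1-KO libraries, against 18.8, 18.7 and 19.4 FPKM in WT libraries (log2 fold change -1.07, adjusted p = 3.19e-07). Gfm1, the factor for translocation, had 38.1, 36.0 and 38.4 FPKM in BACH1-KO libraries, against 64.6, 67.3 and 65.8 FPKM in WT libraries (log2 fold change -0.80, adjusted p = 4.99e-07). All 3 fell. In the list for mitochondrial DNA, Supv3l1, an RNA helicase of the degradation machinery, had 21.0, 21.2 and 21.2 FPKM in BACH1-KO libraries, against 34.2, 32.3 and 33.02 FPKM in WT libraries (log2 fold change -0.63, adjusted p = 1.71e-06). Mgme1, a nuclease for mitochondrial DNA, had 24.1, 23.9 and 23.7 FPKM in BACH1-KO libraries, against 15.6, 16.7 and 16.4 FPKM in WT libraries (log2 fold change 0.54, adjusted p = 7.14e-06). Tefm, the transcription elongation factor, had 64.8, 71.2 and 69.4 FPKM in BACH1-KO libraries, against 44.4, 39.5 and 45.0 FPKM in WT libraries (log2 fold change 0.66, adjusted p = 1.59e-05). Supv3l1 fell, and Mgme1 and Tefm rose.

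**Figure D4:**
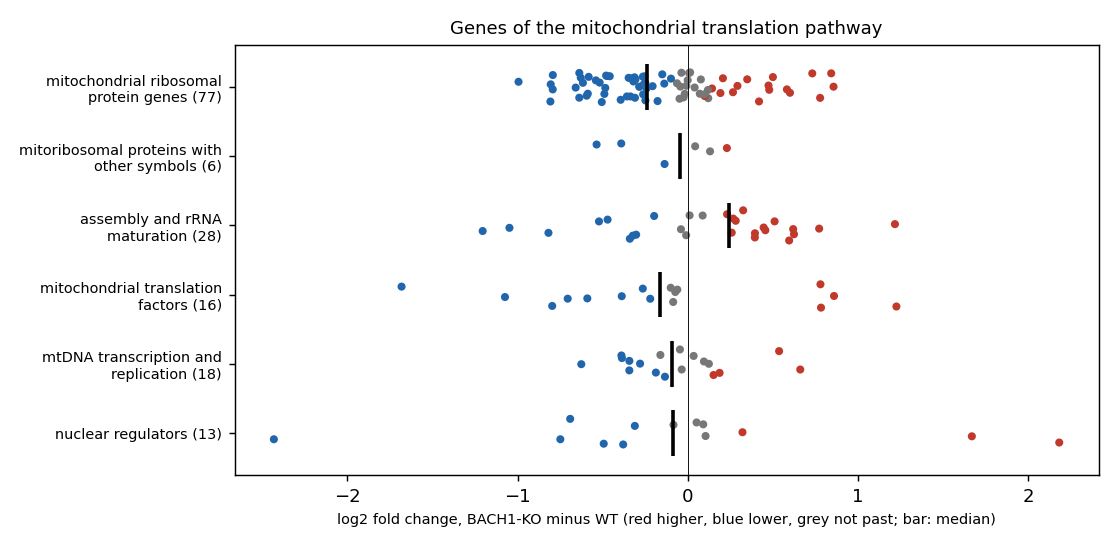
Log2 fold change, BACH1-KO minus WT (horizontal axis, log2(FPKM + 1) scale), of each gene (points, spread vertically for legibility) in the mitochondrial ribosomal protein genes and in 5 lists of the same pathway; bars mark the medians. The median is -0.24 for the 77 members and 0.24 for the 28 assembly genes, and Tufm at -1.68 is the lowest translation factor.

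Nuclear regulators known to act on genes for mitochondrial proteins moved in both directions. Of 14 listed, 13 were tested, of which 6 fell (46.2%) and 3 rose (23.1%), beside 39.7% and 37.3% of all genes tested. The other, Ppargc1a, was at most 0.123 FPKM in BACH1-KO libraries and listed at 0 in WT libraries. Gabpa, the DNA-binding subunit of the ETS factor GABP, had 34.6, 33.8 and 34.2 FPKM in BACH1-KO libraries, against 58.4, 57.7 and 58.4 FPKM in WT libraries (log2 fold change -0.75, adjusted p = 2.67e-07). Pprc1, a coactivator, had 14.3, 14.3 and 15.3 FPKM in BACH1-KO libraries, against 25.6, 22.8 and 24.4 FPKM in WT libraries (log2 fold change -0.69, adjusted p = 7.68e-06). Myc, a growth regulator, had 1.33, 1.80 and 1.19 FPKM in BACH1-KO libraries, against 16.9, 9.50 and 10.9 FPKM in WT libraries (log2 fold change -2.43, adjusted p = 8.02e-06). These 3 fell without overlap, as did Max (-0.38), Ncor1 (-0.31) and Ppargc1b (-0.49). Atf4, the main factor of the integrated stress response, had 432, 409.7 and 416 FPKM in BACH1-KO libraries, against 98.0, 91.0 and 86.3 FPKM in WT libraries (log2 fold change 2.18, adjusted p = 1.83e-08). On the log2 scale its relative Atf5 rose by 1.67 (adjusted p = 2.03e-07) and Yy1 by 0.32 (adjusted p = 0.00109). Nrf1 had 29.5, 30.6 and 29.4 FPKM in BACH1-KO libraries, against 26.5, 28.002 and 29.3 FPKM in WT libraries, without overlap but not past the threshold (0.09, adjusted p = 0.0994). It did pass without the third WT library (0.12, adjusted p = 0.0401), after median-of-ratios scaling (0.12, adjusted p = 0.0465) and after quantile normalization (0.14, adjusted p = 0.0239). Gabpb1, Esrra and Mycn did not pass either, apart from Mycn after quantile normalization (0.12, adjusted p = 0.0221).

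Many mitochondrial ribosomal protein genes start close to another gene that runs the other way, an arrangement called head to head. In GENCODE M21, 33 of the 77 members, or 42.9%, had a protein-coding gene on the opposite strand starting within 1000 bases, against 16.5% of the 11375 protein-coding genes tested. The partner was tested in 29 pairs, with Mrpl46 and Mrps11, which are each other's partner, counted once. Of the partners 10 fell, 9 rose and 10 did not pass, while of all genes tested 39.7% fell and 37.3% rose. In 14 pairs both genes passed, with 5 pairs that both fell, 2 that both rose and 7 that went opposite ways. Cyb5rl is among the partners that rose and, with Mrpl37, among the opposite pairs. It averaged 2.30 FPKM in BACH1-KO libraries and 0.402 FPKM in WT libraries. It thus passed the level filter through the BACH1-KO libraries, and its direction was fixed by the filter. Across the 29 pairs the log2 fold changes of member and partner had a Pearson's r of -0.04 and a Spearman's rho of -0.06, over pairs that share their libraries. Of the members with such a neighbour 19 of 33 fell, and of those without one 24 of 44 fell.

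Single pairs show the range. Mrps12 and Sars2, a mitochondrial seryl-tRNA synthetase gene, start 172 bases apart. Sars2 had 14.4, 14.7 and 15.4 FPKM in BACH1-KO libraries, against 10.3, 11.9 and 11.1 FPKM in WT libraries (log2 fold change 0.39, adjusted p = 0.000380), a rise beside the fall of Mrps12. Mrps18b and Ppp1r10 start 45 bases apart, and Ppp1r10, a subunit of protein phosphatase complexes, had 8.80, 9.39 and 8.27 FPKM in BACH1-KO libraries, against 4.39, 3.33 and 3.51 FPKM in WT libraries (log2 fold change 1.05, adjusted p = 1.54e-05). Mrpl51 and Ncapd2, a condensin subunit gene, start 100 bases apart, and Ncapd2 fell by 0.50 (adjusted p = 9.33e-06) while Mrpl51 rose. Other pairs went the same way. Mrps27 and Ptcd2 start 81 bases apart and fell by 0.54 (adjusted p = 1.61e-05) and by 0.85 (adjusted p = 2.59e-07). Mrpl36 and Ndufs6, a complex I subunit gene, start 29 bases apart and fell by 0.36 (adjusted p = 3.09e-05) and by 0.32 (adjusted p = 0.00115). Mrpl32 did not pass (-0.02, adjusted p = 0.675), while its neighbour Psma2, a proteasome subunit gene 75 bases away, had 315, 309.8 and 295 FPKM in BACH1-KO libraries, against 553, 550.5 and 549 FPKM in WT libraries (log2 fold change -0.84, adjusted p = 1.76e-07). These pairs were chosen after their values were seen.

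**Figure D5:**
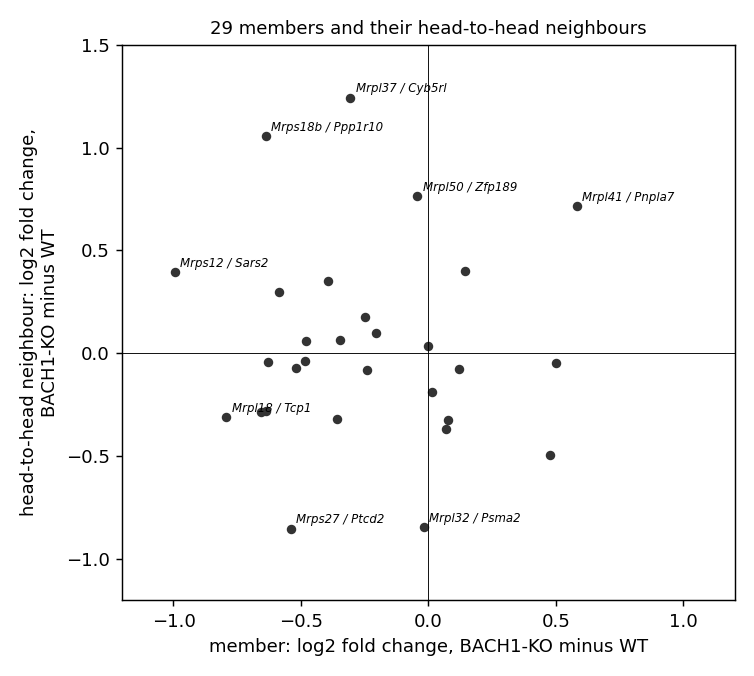
Log2 fold change of 29 mitochondrial ribosomal protein genes (horizontal axis) and of the gene that starts head to head with each (vertical axis), BACH1-KO minus WT (log2(FPKM + 1) scale on both axes); each point is 1 pair, and pairs far from the centre are named. The points show no common direction (Pearson's r -0.04), with Mrps12 and Sars2 on opposite sides of 0 and Mrps27 and Ptcd2 both below it.

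Promoter sequence was available for 68 members, from RefSeq, and covers 250 bases before to 50 bases after the start. Motifs were searched on both strands as exact letters, with N for any base, and a TGAGTCA read on the other strand and followed by GC is also a TGACNNNGC match. The ETS motif CCGGAAG, which GABP binds, was present in 25 members, or 36.8%, beside 20.4% of 9192 tested genes and 9.93% of 27025 genes in all. The NRF1 motif CGCATGCG was present in 7 members, or 10.3%, beside 4.63% of tested and 2.07% of all genes. The YY1 motif AAGATGGCG was present in 8 members, or 11.8%, beside 3.71% and 1.64%. These motifs were more frequent in the members than in tested genes, while no test of that difference was made.

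The element core of BACH1 and NRF2, TGACNNNGC, was present in 13 members, or 19.1%, beside 17.3% of tested and 14.0% of all genes. The letters TGAGTCA were present in 2 members, or 2.94%, beside 4.31% and 5.95%, and the E-box CACGTG in 5 members, or 7.35%, beside 12.2% and 8.09%. The ATF4 motif TGATGNAAT was in no member's window, beside 0.468% of tested and 1.08% of all genes. Split by call, the ETS motif was present in 15 of 37 members that fell, 5 of 15 that rose and 5 of 16 that did not pass. The TGACNNNGC core was present in 6 of the falling, 3 of the rising and 4 of the other members in the same split. Mrpl22, a large-subunit protein near the exit tunnel that had 144, 149.98 and 154 FPKM in BACH1-KO libraries, against 182, 189 and 195 FPKM in WT libraries (log2 fold change -0.34, adjusted p = 6.43e-05), holds 3 of the motifs within 150 bases and is shown for that reason, chosen after the motifs were seen. Its capitals mark, from the 5' end, the TGACNNNGC core, the ETS motif and the NRF1 motif.
Mrpl22, chr11:58171514-58171663, plus strand: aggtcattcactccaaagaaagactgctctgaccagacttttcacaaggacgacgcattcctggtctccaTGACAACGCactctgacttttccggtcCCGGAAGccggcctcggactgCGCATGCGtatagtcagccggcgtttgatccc
The windows of Mrps12, Mrpl28 and Mrpl55 given above hold none of the motifs in the 150 bases printed, although these genes are among the largest changes in either direction, and that of Mrpl17, a rising gene, holds an NRF1 match. A match is a string of letters and not a measured site, and the lack of one says only that these letters are not in the window.

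The members were set beside related gene families. Against their 43 falls, 17 rises and median log2 fold change of -0.24, the 36 genes of respiratory complex I with Nduf symbols had 17 falls and 8 rises, or 47.2% and 22.2%, and a median of -0.13. The 82 cytosolic ribosomal protein symbols, which stand for the ribosome that makes the cell's other proteins, had 22 falls and 35 rises, or 26.8% and 42.7%, and a median of 0.09. Of all genes tested 39.7% fell and 37.3% rose. Of those that averaged 50 FPKM or more, 55.0% fell and 28.6% rose, with a median of -0.17. The difference between these families was not tested.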

How the data were processed

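The authors deposited 1 table of FPKM values for 3 BACH1-KO and 3 WT libraries; Cufflinks and build mm10 are named per the submitters' processing notes. For the aligner, annotation, strand setting and versions, the sources used here give nothing. FPKM is a share of the library, read counts were not used, and the depth is unknown. Its columns name the genotype but not the sample title, so they served as unpaired replicates. Another 23 entries with a number in place of a symbol (0.0987% of the summed FPKM) were left out.

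The 12187 genes that averaged 1 FPKM or more were compared on the log2(FPKM + 1) scale with the limma package, version 3.58.1, under R 4.3.3 (lmFit, eBayes with trend), two-sided, with Benjamini-Hochberg adjustment over all of them and a threshold of 0.05. All adjusted p-values printed come from limma, whose script was tested on simulated data. Fold changes on this scale understate the change of low genes, and "rose" and "fell" are used for genes past the threshold.

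Members, subunit classes and gene lists were chosen with earlier results of these data known, so counts over them carry no test. Members named were the 8 largest changes in each direction without overlap, the 4 highest and 4 lowest levels, the 4 largest adjusted p, those on chromosome 6 and a fixed set of well-known proteins. Up to 3 genes with the smallest adjusted p were named in each list, and all regulators and proteins with other symbols. Genes outside this rule were picked with their values in view. Positions are from GENCODE M21, sequences from RefSeq (GRCm38.p6). The window upstream of Mrpl53 runs into an exon annotated in GENCODE and is not shown. Those of Mrpl17, Mrpl28 and Mrpl22 pass the GENCODE start of the gene by a few bases and are shown. Alternatives were other pseudocounts (0.1, 0.5), filters and scalings, a constant prior variance, a test against a fold change of 1.5 and leaving out each library.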

Additional observations from a re-analysis of the deposited data

How the results depend on the processing

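No member that passed the threshold changed direction and passed it under any alternative run. Members called higher and lower numbered 17 and 43 with pseudocounts of 0.1 and 0.5 and with either filter, 18 and 42 after median-of-ratios scaling, 26 and 36 after quantile normalization and 2 and 5 against a fold change of 1.5. Against that fold, 2.60% of the members were higher and 6.49% lower. Over all genes tested these shares were 10.9% (1325 genes) and 8.16% (994 genes), so the members were below all genes in both directions. The 3 lists of the pathway had 4 higher and 6 lower among 62 genes. A minimum of 5 FPKM left 8613 genes tested, of which 2942 (34.2%) were higher and 3862 (44.8%) lower. The members stayed at 22.1% higher and 55.8% lower in that fit. The median log2 fold change of members was -0.22 after median-of-ratios scaling, -0.11 after quantile normalization, -0.21 with the proteins of other symbols added and -0.22 without Mrps36, and the log2 ratio of summed member FPKM was -0.18 and -0.0709 under the 2 scalings, beside -0.21. Leaving out 1 library at a time gave medians of -0.24 to -0.17. Signs turned for 8 members after quantile normalization and 4 after median-of-ratios scaling. Among the genes named by rule these were Mrpl3 (0.016 median-of-ratios, 0.092 quantile), Mrpl43 (0.024 and 0.083) and Mrps35 (0.080, quantile), and the sign of Aurkaip1, no member, turned too (0.021, quantile). Without 1 library the estimates of members that did not pass spanned 0, at -0.035 to 0.034 for Mrpl3, -0.036 to 0.056 for Mrpl30, -0.038 to 0.062 for Mrpl43, -0.023 to 0.039 for Mrps10 and -0.084 to 0.020 for Mrps35. Of 992 pairs of a named gene and an alternative, 924 kept direction and call. Mrpl15 did not pass after median-of-ratios scaling, nor Mrpl1 with a constant prior variance. The cause of these shifts was not tested. No paired analysis was possible because the columns cannot be tied to sample titles. The depth is unknown, and 3 libraries a group limit the precision.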
